A study of Caenorhabditis elegans with 10 samples.

Results

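The comparison described here sets *mthf-1(ww50)* animals against the strain they were derived from, *Pacdh-1::GFP;∆nhr-10*, called the parent. Its members are the 4 libraries that the table of transcript abundances assigns to these strains, 2 replicates each, of 10 libraries in the series. Of 46903 genes in the table, the 14218 with a mean of at least 1 TPM (transcript abundance scaled to a fixed total per library) over these 4 libraries were tested. The *mthf-1(ww50)* animals carry the reporter transgene wwIs24[Pacdh-1::GFP;unc-119(+)] together with the deletion allele *nhr-10(tm4695)* and *mthf-1(ww50)*. The parent carries the same transgene and the same *nhr-10* deletion without the *mthf-1* mutation. Animals of both strains therefore hold GFP driven by the *acdh-1* promoter and lack a working *nhr-10*. Both were grown for 48 hours on *E. coli* OP50 with 20 nM vitamin B12 after an 18 hour arrest as L1 larvae, following maintenance at 0.64 nM. At least 200 animals, labelled L4, went into each library of whole-animal RNA. The paper's methods describe the picked animals as late L4 to early young adult. The ww50 allele came out of an ethyl methanesulfonate screen for GFP in the presence of vitamin B12 and was backcrossed to the parent, so the strain stands for a single mutant isolate. The remaining 6 libraries are 2 replicates each of the SAM synthetase mutant *sams-1(ww51)*, the methionine synthase mutant *metr-1(ww52)* and the methionine synthase reductase mutant *mtrr-1(ww56)*, all in the same background.

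In the Met/SAM cycle, methionine synthase METR-1 makes methionine from homocysteine with vitamin B12 as cofactor and takes the methyl group from methyltetrahydrofolate, which the methylenetetrahydrofolate reductase MTHF-1 makes. SAM synthetases convert methionine into S-adenosylmethionine, the methyl donor of the cell, and AHCY-1 returns the product of methyl transfer to homocysteine. Vitamin B12 is also a cofactor in the breakdown of propionate, and *C. elegans* has a B12-independent propionate shunt whose first gene is *acdh-1*. The question the comparison addresses is which transcripts differ when the enzyme that supplies methyl groups to the cycle is mutated while vitamin B12 is plentiful and *nhr-10* is missing.

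TPM values keep no sequencing depth, so the counting error of a value is unknown. Between 13752 and 14563 genes reached 1 TPM in each of the 10 libraries, and the 100 most abundant genes held 31.8% to 35.98% of the TPM. In *mthf-1(ww50)* libraries 14194 and 14284 genes reached 1 TPM, against 13752 and 13819 in parent libraries. Markers of intestine, muscle, neurons and germ line were above 0 TPM in every library. Across genes, log2(TPM + 1) correlated at 0.951 between the *mthf-1(ww50)* replicates and at 0.962 between the parent replicates. It correlated at 0.953 between replicate 1 of *mthf-1(ww50)* and replicate 1 of the parent, and at 0.958 between the replicates numbered 2. Equal replicate numbers thus went together across strains, and where a fit that also holds the replicate number (the replicate block) changes a call, its value is given. *nhr-10* was still listed at 3.19 and 4.44 TPM in *mthf-1(ww50)*, against 3.95 and 3.85 TPM in the parent, so the gene total does not show the deletion.

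The mutated gene itself, *mthf-1* (WBGene00015512, minus strand of chromosome II, 7773904 to 7777823 in WBcel235), was listed at 420.1 and 336 TPM in *mthf-1(ww50)* animals, against 90.4 and 73.1 TPM in the parent. Both mutant libraries lay above both parent libraries, and the ratio of the means was 4.63. The log2 fold change of *mthf-1* was 2.19 ± 0.30 (SE), with an adjusted p of 0.0322 (limma, Benjamini-Hochberg), which missed the threshold of 0.01, and of 0.00131 with the replicate block in limma. Here and below, fold changes in log2 units were computed on TPM + 1, so they come out smaller than the ratio of means for genes of low abundance. The level of *mthf-1* does not check the strain label, since a point mutation need not lower a transcript and the transcript was higher.

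A gene was called when limma, fitted over the 10 libraries with a mean for each strain, gave a Benjamini-Hochberg adjusted p under 0.01 and a fold change over 1.5. By this rule 22 genes were higher in *mthf-1(ww50)* (0.155% of those tested) and 5 were lower (0.0352%), 27 in all (0.19%). At this share, a short list without a called gene does not differ from all genes tested. The gene lists below were written with earlier results of these data known, so a count above this share is a description and not a test. With the replicate block, 35 genes were called higher (0.246%) and 9 lower (0.0633%), and these included all 22 and all 5. The number of calls changed with single libraries. Without parent replicate 1, limma called 7 genes higher and 17 lower, and without parent replicate 2 it called 10 higher and 18 lower. Without replicate 1 or replicate 2 of *mthf-1(ww50)*, it called 20 and 24 genes higher and 2 and 1 lower. Each of these fits assumes that the strain left with a single library varies like the other strains, and each kept between 6 and 8 of the 22 genes and 1 or 2 of the 5. Each of the 27 called genes had both mutant libraries on one side of both parent libraries. Leaving out 1 library therefore could not reverse its direction. In whole-animal RNA, fewer cells of a type and less RNA per cell cannot be told apart. With these 4 libraries alone, 2 genes were called higher and none lower, while 1588 genes had an unadjusted p under 0.05 in that limma fit. The median log2 fold change over all genes tested was 0.12, and 0.01 after quantile normalization.

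**Figure D1:**
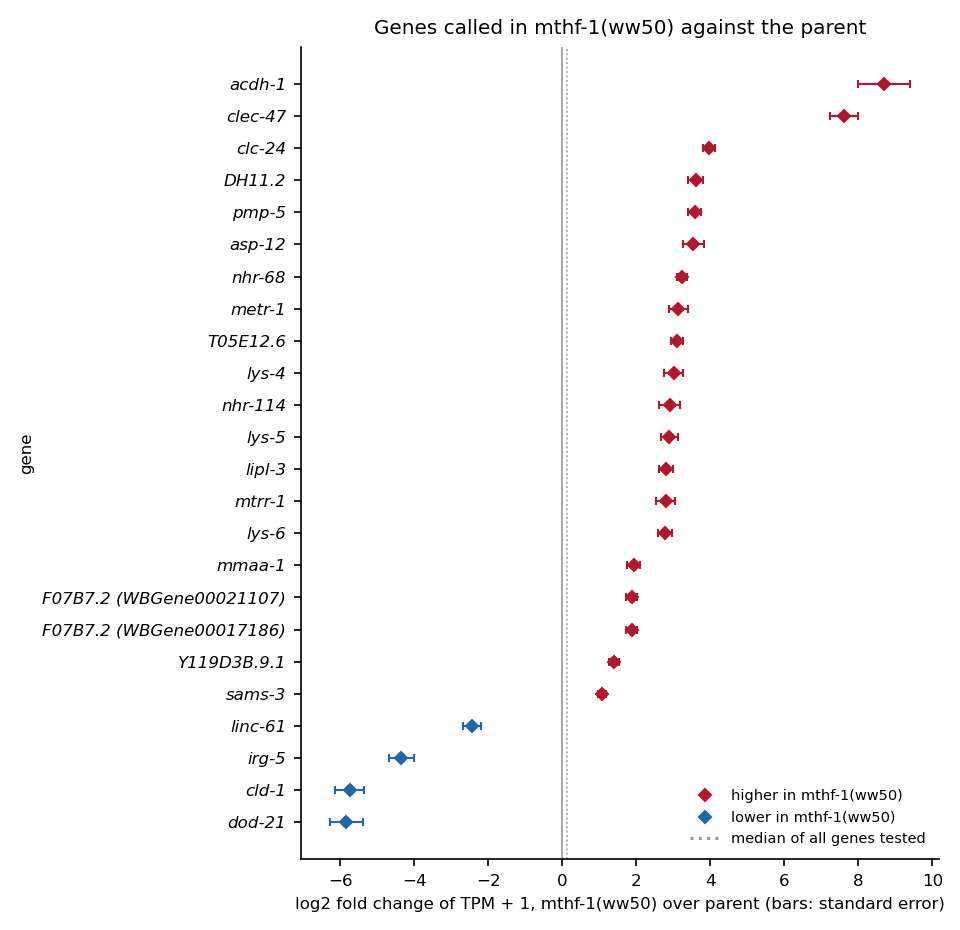
Log2 fold change of TPM + 1 in *mthf-1(ww50)* over the parent (x axis, bars are standard errors from limma) for the genes called higher or lower (y axis). *anr-19*, C49F5.12 and F55C12.15, listed at 0 TPM in both libraries of 1 strain, are left out, and the dotted line is the median of all genes tested. *acdh-1* and *clec-47* lie farthest to the right and *dod-21* and *cld-1* farthest to the left.

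All 8 Met/SAM cycle genes tested had both *mthf-1(ww50)* libraries above both parent libraries, a pattern found in 29.6% of all genes tested, and their median log2 fold change was 2.09 against 0.12 for all genes. Of these genes 3 were called higher and none lower, where 0.155% and 0.0352% of all genes tested were. With the replicate block 4 were called, where 0.246% of all genes were called higher. *metr-1*, methionine synthase, was at 242 and 192 TPM in *mthf-1(ww50)*, against 24.5 and 22.8 TPM in the parent. The groups lay far apart, with a ratio of means of 9.18, and *metr-1* was called at a log2 fold change of 3.14 ± 0.26 (SE; limma, Benjamini-Hochberg adjusted p = 0.00376). *mtrr-1*, which encodes the reductase that keeps methionine synthase active, was at 170.5 and 148 TPM in *mthf-1(ww50)*, against 19.9 and 24.6 TPM in the parent. It was called at 2.79 ± 0.26 (SE; limma, Benjamini-Hochberg adjusted p = 0.00803), a call lost under 9 of the 15 alternatives.

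The SAM synthetase genes did not all move by the same amount. *sams-3* was at 179.8 and 160.4 TPM in *mthf-1(ww50)*, against 80.9 and 78.6 TPM in the parent, and was called at a log2 fold change of 1.08 ± 0.11 (SE; limma, Benjamini-Hochberg adjusted p = 0.00967), a call lost under 10 of the 15 alternatives. *sams-4* was at 159 and 123 TPM in *mthf-1(ww50)*, against 68.8 and 62.3 TPM in the parent, a log2 fold change of the same size, but its adjusted p was 0.0459 (limma, Benjamini-Hochberg). *sams-3* and *sams-4* are closely similar paralogs, and how the counting divided reads between them is not known. *sams-1*, the major SAM synthetase gene, was at 326 and 331 TPM in *mthf-1(ww50)*, against 80.2 and 33.7 TPM in the parent. The parent replicates of *sams-1* differed by more than those of any other gene of the cycle, and its log2 fold change of 2.63 ± 0.52 (SE) had an adjusted p of 0.1 (limma, Benjamini-Hochberg) and of 0.0186 with the block in limma. *sams-5* was at 71.1 and 77.3 TPM in *mthf-1(ww50)*, against 19.4 and 16.5 TPM in the parent (log2 fold change 1.99 ± 0.31, SE; limma, Benjamini-Hochberg adjusted p = 0.0428). *ahcy-1*, which encodes the S-adenosylhomocysteine hydrolase and was the most abundant transcript of the cycle, was at 2296 and 2265 TPM in *mthf-1(ww50)*, against 756 and 788 TPM in the parent. The replicates of *ahcy-1* lay close together in both strains, and its log2 fold change of 1.56 ± 0.20 (SE) had an adjusted p of 0.0222 (limma, Benjamini-Hochberg).

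**Figure D2:**
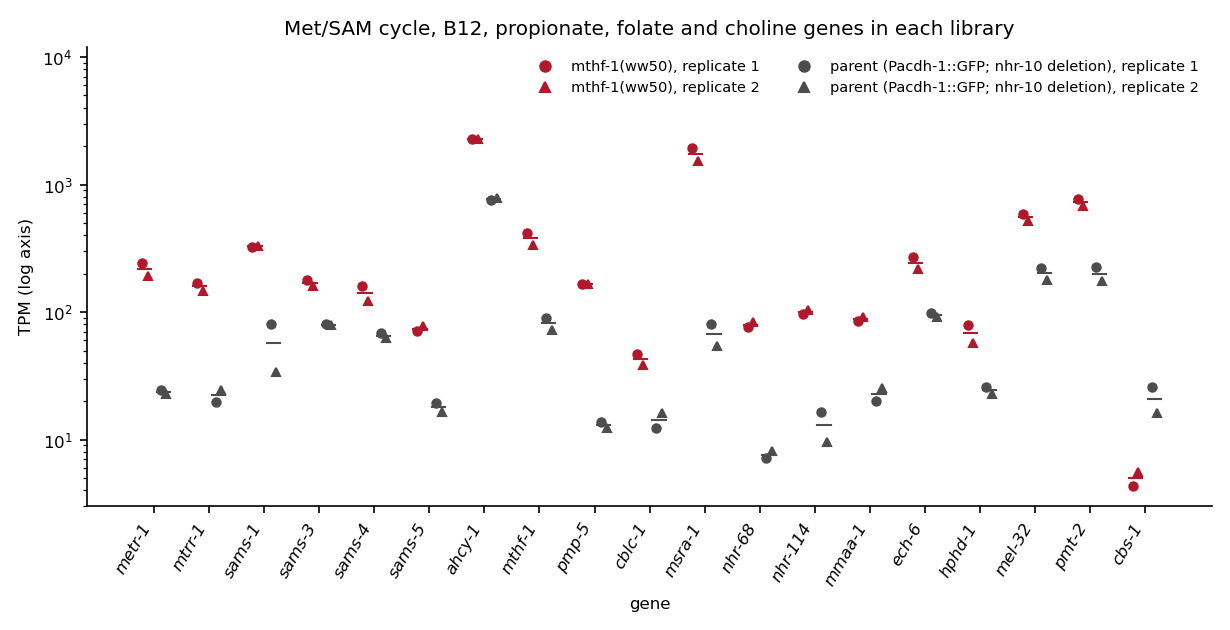
TPM on a log axis for 19 genes of the Met/SAM cycle and connected metabolism (x axis) in *mthf-1(ww50)* (red, left of each pair) and the parent (grey, right). Circles are replicate 1, triangles replicate 2 and short lines the mean of 2. For every gene shown the strains do not overlap, and only *cbs-1* lies lower in *mthf-1(ww50)*.

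Genes for vitamin B12 handling, methionine repair and the regulators of the pathway fell into a group that was higher and a group that was not. Of 8 such genes 3 were called higher and none lower, where 0.155% and 0.0352% of all genes tested were. The list holds *pmp-5*, *msra-1* and *nhr-114*, which the study described as induced in these mutants, so the count is no independent support. With the replicate block 4 were called higher, against 0.246% of all genes. The median log2 fold change of the list was 2.21, against 0.12 for all genes. *pmp-5*, which encodes an ABC transporter related to the human vitamin B12 transporter ABCD4, was at 165.8 and 167 TPM in *mthf-1(ww50)*, against 13.7 and 12.4 TPM in the parent. Its log2 fold change was 3.58 ± 0.17 (SE; limma, Benjamini-Hochberg adjusted p = 0.000423), and it was called without any of the 4 libraries in turn. *cblc-1*, the relative of the human B12-processing gene MMACHC, was at 47.1 and 38.2 TPM in *mthf-1(ww50)*, against 12.24 and 16.1 TPM in the parent, which did not pass (limma, Benjamini-Hochberg adjusted p = 0.132). *mrp-5*, a B12 exporter gene, was at 15.9 and 16.5 TPM in *mthf-1(ww50)*, against 19.5 and 18.0 TPM in the parent (limma, Benjamini-Hochberg adjusted p = 0.647).

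*msra-1*, a methionine sulfoxide reductase gene, had the largest log2 fold change of this list. It was at 1944 and 1531 TPM in *mthf-1(ww50)*, against 81.3 and 53.9 TPM in the parent, a ratio of means of 25.7. Its log2 fold change of 4.68 ± 0.50 (SE) missed the call with an adjusted p of 0.0134 (limma, Benjamini-Hochberg) and passed it with the block in limma at 0.00257. Its exons overlap those of *insc-1* on the other strand by 41 bases.

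*nhr-68* and *nhr-114* encode nuclear hormone receptors that regulate propionate shunt and Met/SAM cycle genes. *nhr-68* was at 76.2 and 83.4 TPM in *mthf-1(ww50)*, against 7.2 and 8.09 TPM in the parent, with the replicates of each strain close together. It was called at a log2 fold change of 3.22 ± 0.14 (SE; limma, Benjamini-Hochberg adjusted p = 0.000321), also without any of the 4 libraries in turn. *nhr-114* was at 97.2 and 103.5 TPM in *mthf-1(ww50)*, against 16.3 and 9.67 TPM in the parent. It was called at 2.90 ± 0.28 (SE; limma, Benjamini-Hochberg adjusted p = 0.00899), a call lost under 10 of the 15 alternatives. These were the only 2 of 149 nuclear hormone receptor genes tested that were called, where 0.19% of all genes were. The family median was 0.02, against 0.12 for all genes. *sbp-1*, which encodes the SREBP transcription factor, was at 7.43 and 9.12 TPM in *mthf-1(ww50)* and 10.5 and 7.49 TPM in the parent, and the strains overlapped.

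*acdh-1*, the acyl-CoA dehydrogenase gene that opens the propionate shunt and whose promoter drives the reporter, had the largest log2 fold change of all genes tested. The ww50 isolate was picked for GFP from this promoter, so the rank is not independent of how the strain was chosen. *acdh-1* was at 477 and 443 TPM in *mthf-1(ww50)*, against 0.05 and 0.18 TPM in the parent. The log2 fold change was 8.69 ± 0.70 (SE; limma, Benjamini-Hochberg adjusted p = 0.00376), and no library left out brought it under 8.61, although *acdh-1* was not called in any of those 4 fits. Further down the shunt, *ech-6*, an enoyl-CoA hydratase gene, was at 269.99 and 219.5 TPM in *mthf-1(ww50)*, against 97.9 and 91.1 TPM in the parent. It passed with the replicate block in limma (adjusted p = 0.00314, Benjamini-Hochberg) and not without it (0.0195). *hphd-1*, the hydroxyacid-oxoacid transhydrogenase gene, was at 79.1 and 57.4 TPM in *mthf-1(ww50)*, against 26.0 and 22.8 TPM in the parent (limma, Benjamini-Hochberg adjusted p = 0.142).

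The 2 other shunt genes lay at the parent level. *hach-1*, an hydrolase gene, was at 45.5 and 44.2 TPM in *mthf-1(ww50)* and 43.8 and 44.3 TPM in the parent. *alh-8*, the aldehyde dehydrogenase gene, was at 256 and 233 TPM in *mthf-1(ww50)* and 263 and 252 TPM in the parent. The acyl-CoA dehydrogenase family did not follow *acdh-1*. None of its 10 other tested members was called, and their log2 fold changes ranged from −0.37 to 0.51.

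In the canonical, B12-dependent propionate pathway 1 of 5 genes was called, where 0.19% of all genes tested were. *mmaa-1*, the relative of the human gene MMAA that serves methylmalonyl-CoA mutase, was at 85.2 and 91.9 TPM in *mthf-1(ww50)*, against 19.9 and 25.6 TPM in the parent. It was called at a log2 fold change of 1.92 ± 0.16 (SE; limma, Benjamini-Hochberg adjusted p = 0.00473), a call lost under 6 of the 15 alternatives. *mmcm-1*, the gene of that mutase, was at 49.96 and 51.0 TPM in *mthf-1(ww50)* and 52.8 and 51.1 TPM in the parent. *pcca-1*, a propionyl-CoA carboxylase subunit gene, was at 104.34 and 89.3 TPM in *mthf-1(ww50)* and 129.5 and 109 TPM in the parent, below in both mutant libraries without passing the test (limma, Benjamini-Hochberg adjusted p = 0.489).

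Among 10 genes of folate one-carbon metabolism none was called, 1 was called with the replicate block, and the median log2 fold change was 0.05. *mel-32*, the serine hydroxymethyltransferase gene that makes the substrate of MTHF-1, was at 593 and 515 TPM in *mthf-1(ww50)*, against 222 and 179.95 TPM in the parent. Its log2 fold change of 1.46 ± 0.25 (SE) had an adjusted p of 0.0592 (limma, Benjamini-Hochberg) and of 0.00766 with the block in limma. *tyms-1*, thymidylate synthase, was at 24.7 and 28.2 TPM in *mthf-1(ww50)*, against 11.7 and 12 TPM in the parent, without overlap and without passing (limma, Benjamini-Hochberg adjusted p = 0.141). *dhfr-1*, dihydrofolate reductase, was at 24.4 and 29.96 TPM in *mthf-1(ww50)* and 23.5 and 28.5 TPM in the parent. The remaining 7 genes, which include the glycine cleavage genes *gcst-1* and *gldc-1* and the folate carrier *folt-1*, had log2 fold changes between −0.53 and 0.56.

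The exit from the cycle was represented by 11 transsulfuration and sulfur genes, of which none was called. *cbs-1*, cystathionine beta synthase, which draws homocysteine out of the cycle, was at 4.34 and 5.61 TPM in *mthf-1(ww50)*, against 25.8 and 16.1 TPM in the parent. The groups did not overlap and the parent mean was 4.21 times the mutant mean, but the log2 fold change of −1.85 ± 0.24 (SE) missed the threshold without and with the block (limma, Benjamini-Hochberg adjusted p = 0.0233 and 0.0223). Its paralog *cbs-2* was at 8.44 and 6.79 TPM in *mthf-1(ww50)* and 9.65 and 7.42 TPM in the parent, with overlap. *cth-2*, the more abundant cystathionine gamma lyase gene, was at 136 and 164 TPM in *mthf-1(ww50)* and 160.5 and 154 TPM in the parent. *cysl-2* was at 39.6 and 19.3 TPM in *mthf-1(ww50)* and 96.0 and 43.9 TPM in the parent, with replicates that differed about as much as the strains (limma, Benjamini-Hochberg adjusted p = 0.512, and 0.0358 with the block).

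Phosphatidylcholine synthesis is a large consumer of methyl groups in *C. elegans*. Of 9 genes 8 were tested and none was called, with 1 called with the replicate block. *pmt-2*, a phosphoethanolamine methyltransferase gene, was at 775 and 681 TPM in *mthf-1(ww50)*, against 225 and 176 TPM in the parent. Its log2 fold change was 1.86 ± 0.30 (SE), with an adjusted p of 0.0479 (limma, Benjamini-Hochberg) and of 0.00452 with the block in limma. *pmt-1*, which acts one step earlier, was at 164 and 221 TPM in *mthf-1(ww50)* and 126 and 256 TPM in the parent, so the strains overlapped and replicate 2 was higher in each. *ckb-2*, a choline kinase gene of the pathway that uses choline, was at 16.5 and 13.1 TPM in *mthf-1(ww50)*, against 39.1 and 42.7 TPM in the parent, without passing (limma, Benjamini-Hochberg adjusted p = 0.308).

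**Figure D3:**
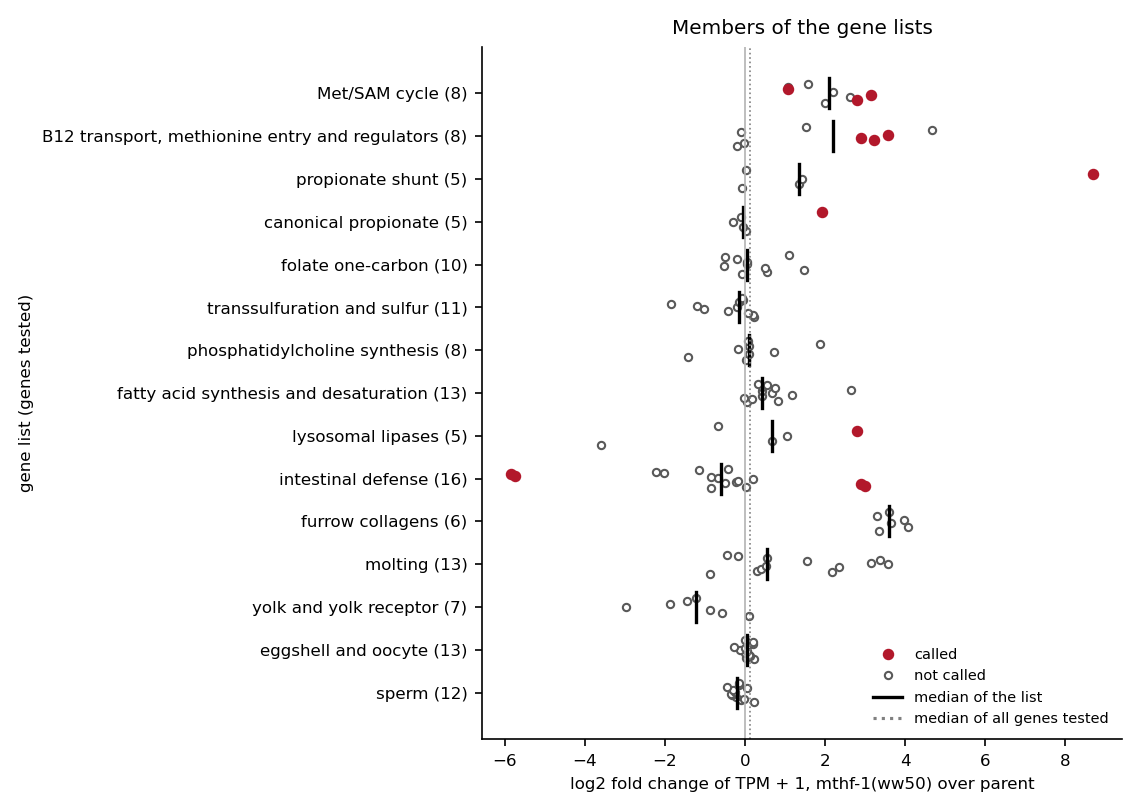
Log2 fold change of TPM + 1 in *mthf-1(ww50)* over the parent (x axis) for every tested member of 15 gene lists (y axis, number tested in parentheses). Filled red points were called, open points were not, black bars are list medians and the dotted line is the median of all genes tested. The furrow collagens have the highest list median, at 3.61, with none of their 6 members called.

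Fatty acid genes lay mostly above the parent and none of 13 was called. The *mthf-1(ww50)* libraries were above both parent libraries for 10 of the 13, a pattern that 29.6% of all genes tested showed, and the median log2 fold change was 0.43 against 0.12 for all genes. *fat-5*, a palmitoyl-CoA desaturase gene, was at 52.4 and 35.7 TPM in *mthf-1(ww50)*, against 8.08 and 4.52 TPM in the parent (limma, Benjamini-Hochberg adjusted p = 0.0375). *fat-2*, an oleate desaturase gene, was at 619.8 and 579 TPM in *mthf-1(ww50)*, against 262 and 269.5 TPM in the parent (limma, Benjamini-Hochberg adjusted p = 0.0211). *fat-7*, a stearoyl-CoA desaturase gene, was at 47.8 and 77.0 TPM in *mthf-1(ww50)* and 46.8 and 42.7 TPM in the parent, a gap smaller than that between the mutant replicates.

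The 5 lysosomal lipase genes went in both directions. *lipl-3* was at 7.99 and 7.53 TPM in *mthf-1(ww50)*, against 0.23 and 0.28 TPM in the parent, and was called higher at a log2 fold change of 2.80 ± 0.18 (SE; limma, Benjamini-Hochberg adjusted p = 0.0018). *lipl-2* was at 3.88 and 2.88 TPM in *mthf-1(ww50)*, against 44.5 and 59.98 TPM in the parent, with the parent mean 15.45 times the mutant mean. Its log2 fold change of −3.60 ± 0.41 (SE) had an adjusted p of 0.0172 (limma, Benjamini-Hochberg) and was called lower with the block in limma (adjusted p = 0.00766). *lipl-5*, the most abundant of the 5, was at 244 and 211 TPM in *mthf-1(ww50)*, against 389 and 342 TPM in the parent, and did not pass (limma, Benjamini-Hochberg adjusted p = 0.219). *lbp-5*, a fatty-acid-binding protein gene, was at 58.5 and 73.1 TPM in *mthf-1(ww50)*, against 158 and 231 TPM in the parent, and was called lower only with the block in limma (Benjamini-Hochberg adjusted p = 0.00257, against 0.102 without).

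Outside these pathways, the second largest log2 fold change belonged to *clec-47*, a C-type lectin gene. It was at 247 and 244 TPM in *mthf-1(ww50)*, against 0.3 and 0.21 TPM in the parent. The log2 fold change was 7.62 ± 0.38 (SE; limma, Benjamini-Hochberg adjusted p = 0.000461), and *clec-47* was the only called gene that stayed called under all 15 alternatives. Of 94 C-type lectin genes tested, *clec-47* was called without the replicate block and *clec-47* and *clec-3* with it. Over all genes, 0.155% and 0.246% were called higher without and with the block. The median of the lectin family was 0.01. *clec-3* was at 21.04 and 10.9 TPM in *mthf-1(ww50)*, against 3.67 and 1.69 TPM in the parent (limma, Benjamini-Hochberg adjusted p = 0.286, and 0.00742 with the block). *clc-24*, a claudin-like gene, was at 31.8 and 24.2 TPM in *mthf-1(ww50)*, against 0.92 and 0.78 TPM in the parent, and was called at 3.96 ± 0.17 (SE; limma, Benjamini-Hochberg adjusted p = 0.000321).

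DH11.2 and T05E12.6 are genes without a given name. DH11.2 was at 43.3 and 49.7 TPM in *mthf-1(ww50)*, against 2.85 and 2.98 TPM in the parent. T05E12.6 was at 158 and 168 TPM in *mthf-1(ww50)*, against 19.97 and 16.6 TPM in the parent, and like *clc-24* it was called without any of the 4 libraries in turn. *asp-12*, an aspartyl protease gene, was at 45.2 and 57.1 TPM in *mthf-1(ww50)*, against 3.65 and 3.3 TPM in the parent, and was called at a log2 fold change of 3.54 ± 0.29 (SE; limma, Benjamini-Hochberg adjusted p = 0.00376). The replicates of DH11.2, T05E12.6 and *asp-12* within a strain lay far closer together than the strains. F07B7.2 stands in the table under 2 gene identifiers with identical values, 10.4 and 9.17 TPM in *mthf-1(ww50)* against 1.87 and 2.03 TPM in the parent. Both were called, and both calls were lost under 7 of the 15 alternatives. The 2 entries lie near each other on chromosome V, so how reads were divided between the copies is uncertain.

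Defense genes changed in both directions. The lysozyme genes *lys-4*, *lys-5* and *lys-6* lie side by side on the minus strand of chromosome IV, between 11621429 and 11627947 in WBcel235, and all 3 were called higher. *lys-4* was at 999 and 856 TPM in *mthf-1(ww50)*, against 88.9 and 146 TPM in the parent (log2 fold change 3.01 ± 0.26, SE; limma, Benjamini-Hochberg adjusted p = 0.00473). *lys-5* was at 10.3 and 12.6 TPM in *mthf-1(ww50)*, against 0.76 and 0.59 TPM in the parent. *lys-6* was at 26.6 and 20.8 TPM in *mthf-1(ww50)*, against 2.37 and 2.84 TPM in the parent, and its call was lost under 6 of the 15 alternatives. None of the other 5 lysozyme genes tested passed: *lys-1* was at 601 and 443 TPM in *mthf-1(ww50)*, against 1103 and 792 TPM in the parent (limma, Benjamini-Hochberg adjusted p = 0.191), and *lys-8* at 382 and 289 TPM in *mthf-1(ww50)*, against 399.9 and 378.5 TPM in the parent (0.569).

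A second cluster, further along chromosome IV, held the 2 genes with the lowest log2 fold changes of all those tested. *dod-21* (12936738 to 12937988, plus strand) was at 7.54 and 6.0 TPM in *mthf-1(ww50)*, against 509 and 385 TPM in the parent, and the parent mean was 66.0 times the mutant mean. *dod-21* fell by 5.84 ± 0.44 (SE) on the log2 scale (limma, Benjamini-Hochberg adjusted p = 0.00373). *cld-1*, whose product has a CUB-like domain, lies next to it on the opposite strand (12935011 to 12936271) and was at 6.27 and 3.87 TPM in *mthf-1(ww50)*, against 373 and 274 TPM in the parent. *cld-1* fell by 5.75 ± 0.39 (SE) on the log2 scale (limma, Benjamini-Hochberg adjusted p = 0.00214). C32H11.4 (12921264 to 12923296) and *dod-24* (12940106 to 12941354) flank this pair, and they were called lower with the replicate block. C32H11.4 was at 6.75 and 5.35 TPM in *mthf-1(ww50)*, against 108 and 64.2 TPM in the parent (limma, Benjamini-Hochberg adjusted p = 0.0163, and 0.000535 with the block). *dod-24* was at 108 and 64.9 TPM in *mthf-1(ww50)*, against 396 and 300.45 TPM in the parent (limma, Benjamini-Hochberg adjusted p = 0.211, and 0.00833 with the block). In each of these 4 genes both mutant libraries lay below both parent libraries.

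*irg-5*, an infection response gene on chromosome V, was called lower as well. It was at 3.32 and 3.92 TPM in *mthf-1(ww50)*, against 131 and 65.8 TPM in the parent, and fell by 4.35 ± 0.34 (SE) on the log2 scale (limma, Benjamini-Hochberg adjusted p = 0.00376). The list of 17 intestinal defense genes holds *lys-4*, *lys-5*, *dod-21* and *cld-1*, but not *lys-6* or *irg-5*. Over this list, 16 genes were tested, and 2 were called higher and 2 lower, where 0.155% and 0.0352% of all genes were. In 10 of the 16, both mutant libraries lay below both parent libraries. Below-parent separation of this kind was found in 14% of all genes tested. The abundant saposin-like gene *spp-5* was at 1036 and 909 TPM in *mthf-1(ww50)*, against 1833 and 1660 TPM in the parent, and did not pass (limma, Benjamini-Hochberg adjusted p = 0.0764). The median of the list was −0.59. The 4 intestinal markers tested summed to 816.5 and 1049 TPM in *mthf-1(ww50)*, and to 1092 and 1461 TPM in the parent, with none at 0, and their part in these results was not tested. Of the 4, *elt-2* was at 15.9 and 19.1 TPM in *mthf-1(ww50)* and 14.3 and 10.5 TPM in the parent, and *ges-1* at 34.1 and 26.2 TPM in *mthf-1(ww50)* and 34.1 and 35.5 TPM in the parent. *ifb-2* was at 126 and 195 TPM in *mthf-1(ww50)*, against 228 and 329 TPM in the parent, and *act-5* at 641 and 809 TPM, against 816 and 1086 TPM. Both mutant libraries lay below both parent libraries for 3 of the 4 and above them for *elt-2*, and none was called.

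Called higher only with the replicate block, outside the lists, were F44A6.5, F54B11.11, Y38H6C.23, Y102A5C.36, C27C7.1, *ent-7*, a nucleoside transporter family gene, and *pho-13*, an acid phosphatase gene. F44A6.5 was at 72.1 and 52.0 TPM in *mthf-1(ww50)*, against 7.26 and 3.15 TPM in the parent (limma, Benjamini-Hochberg adjusted p = 0.0111, and 0.00125 with the block). For all 7 genes both mutant libraries lay above both parent libraries, and their adjusted p-values with the block in limma lay between 0.00125 and 0.00762.

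The other called genes were non-coding RNAs and pseudogenes. *linc-61*, a long intergenic RNA on chromosome V, was at 1.16 and 0.67 TPM in *mthf-1(ww50)*, against 10.3 and 8.45 TPM in the parent, and was called lower at −2.44 ± 0.23 (SE; limma, Benjamini-Hochberg adjusted p = 0.00873), a call lost under 11 of the 15 alternatives. F55C12.15, a non-coding RNA with 140 bases of exon, was listed at 0 in both *mthf-1(ww50)* libraries, against 6.85 and 10.4 TPM in the parent. C49F5.12, a pseudogene whose whole exon sequence overlaps another gene on the opposite strand, was listed at 3.32 and 3.78 TPM in *mthf-1(ww50)* and at 0 in both parent libraries. Y119D3B.9.1, also a pseudogene, was at 5.85 and 6.12 TPM in *mthf-1(ww50)*, against 1.48 and 1.81 TPM in the parent. The calls of C49F5.12 and Y119D3B.9.1 were lost under 7 and 8 of the 14 alternatives that gave them a value. A gene listed at exactly 0 may be one for which no abundance could be estimated, so no fold change is given for it.

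Families of detoxification genes held no called member. Over all genes tested, 14% had both *mthf-1(ww50)* libraries below both parent libraries and 29.6% had both above, and the median log2 fold change was 0.12. Of 31 glutathione transferase genes, 15 had both mutant libraries below both parent libraries and 2 above, with a median log2 fold change of −0.35. *gst-38* was at 6.48 and 6.64 TPM in *mthf-1(ww50)*, against 86.8 and 42.6 TPM in the parent (limma, Benjamini-Hochberg adjusted p = 0.0652). Of 49 UDP-glucuronosyltransferase genes, 21 lay below and 9 above, with a median of −0.25. Of 42 cytochrome P450 genes, 13 lay below and 8 above, with a median of −0.08. *cyp-32B1* was at 2.54 and 2.34 TPM in *mthf-1(ww50)*, against 8.13 and 9.94 TPM in the parent (limma, Benjamini-Hochberg adjusted p = 0.0592). The 78 ribosomal protein genes, the abundant reference for the scale, had log2 fold changes between −0.06 and 0.21.

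None of the genes on the lists that follow the molting cycle was called, and their levels varied between replicates as well as between strains. The 6 furrow collagens, cuticle collagens made early in each larval stage, summed to 328 and 154 TPM in *mthf-1(ww50)*, against 17.1 and 8.2 TPM in the parent. All 6 were higher in both mutant libraries, as were 29.6% of all genes tested. Their log2 fold changes lay between 3.30 and 4.06, and none was called with or without the replicate block. *dpy-3* was at 62.3 and 28.4 TPM in *mthf-1(ww50)*, against 2.45 and 0.93 TPM in the parent (limma, Benjamini-Hochberg adjusted p = 0.275, and 0.0229 with the block). The 13 molting genes summed to 1068 and 559.8 TPM in *mthf-1(ww50)*, against 516 and 335 TPM in the parent. Of the 13, 9 were higher in both mutant libraries and 2 lower in both, where 29.6% and 14% of all genes tested were. The other 2 overlapped, and the median log2 fold change was 0.54, against 0.12 for all genes. *noah-2*, a cuticle matrix gene, was at 68.3 and 32.9 TPM in *mthf-1(ww50)*, against 3.68 and 2.5 TPM in the parent, while *nhr-23*, the receptor gene that drives molting, was at 30.1 and 31.9 TPM in *mthf-1(ww50)* and 24.5 and 25.4 TPM in the parent. The members with the lowest log2 fold changes were *nas-36* and *mlt-7*. *nas-36*, an astacin protease gene, was at 13.3 and 14 TPM in *mthf-1(ww50)*, against 28.9 and 22.8 TPM in the parent (limma, Benjamini-Hochberg adjusted p = 0.495). *mlt-7*, a peroxidase gene of the cuticle, was at 15.03 and 41.9 TPM in *mthf-1(ww50)* and 16.24 and 72.7 TPM in the parent, with overlap.

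Adult and oocyte genes showed the replicates more than the strains. The 13 eggshell and oocyte genes summed to 583 and 1701 TPM in *mthf-1(ww50)*, and to 659.8 and 1355 TPM in the parent. Each of the 13 overlapped between strains, as did 8028 of the 14218 genes tested. The 7 yolk and yolk receptor genes summed to 232 and 3618 TPM in *mthf-1(ww50)*, and to 1156 and 4159 TPM in the parent. The yolk protein gene *vit-3* was at 9.19 and 176 TPM in *mthf-1(ww50)*, against 275 and 397 TPM in the parent, the only one of the 7 without overlap (limma, Benjamini-Hochberg adjusted p = 0.569). In all 5 strains replicate 2 had the lower sum of furrow collagens and molting genes and the higher sum of eggshell and yolk genes. The 12 sperm genes summed to 895 and 1206 TPM in *mthf-1(ww50)*, and to 1142 and 1347 TPM in the parent. The furrow collagen and molting sums thus lay higher in *mthf-1(ww50)*. Most of the oocyte, yolk and sperm genes overlapped between strains. Between replicates of equal number, however, the yolk and sperm sums were lower in *mthf-1(ww50)* both times. The eggshell and oocyte sum was lower in replicate 1 and higher in replicate 2. Median log2 fold changes were −1.22 for yolk, −0.19 for sperm and 0.04 for eggshell and oocyte genes, against 0.12 for all genes. The part of these stage markers in the changes of the other genes was not tested.

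**Figure D4:**
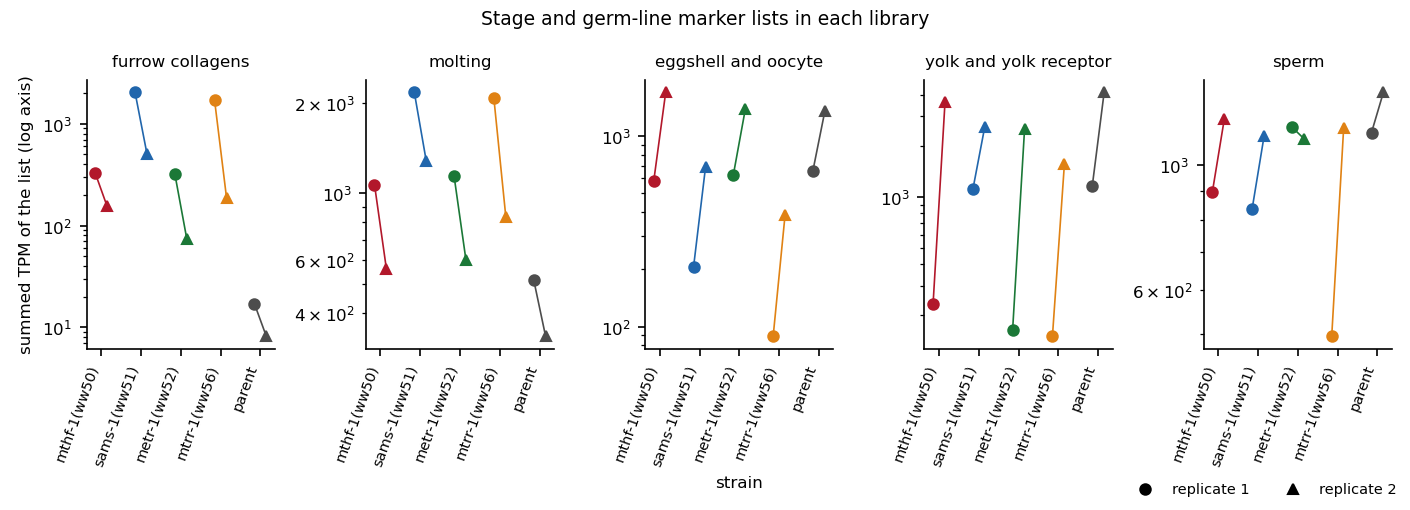
Summed TPM (y axes, log scales that differ between panels) of 5 marker lists in *mthf-1(ww50)*, the other 3 mutants and the parent (x axis, from left to right). Circles are replicate 1 and triangles replicate 2, joined for each strain. Furrow collagens lie above the parent in all 4 mutants, and eggshell and yolk sums are higher in replicate 2 of each strain.

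A second comparison set *mthf-1(ww50)* against the mean of the other 3 mutants, which does not use the parent. Limma with Benjamini-Hochberg adjustment called 1 gene higher (0.00703% of those tested) and none lower, while 1532 genes had an unadjusted p under 0.05. At an adjusted p under 0.05 it called 2 higher (0.0141%). Without replicate 1 of *mthf-1(ww50)* the same fit called 14 genes higher and 1 lower, and without replicate 2 it called 19 higher and none lower. The called gene was *anr-19*, an antisense RNA of 123 bases (chromosome I, 1916942 to 1917064, minus strand, WBcel235). It was listed at 32.7 and 22.5 TPM in *mthf-1(ww50)* and at 0 in the 6 libraries of the other mutants and in both parent libraries (limma, Benjamini-Hochberg adjusted p = 0.000234 against the other mutants and 0.000321 against the parent). All of its bases overlap exons of *trpp-10* on the opposite strand, and with no strand setting stated for the mapping, reads of the antisense RNA cannot be told apart from those of *trpp-10*. *trpp-10* itself had a log2 fold change of 0.09 ± 0.18 (SE) against the parent.

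Several genes lay apart from the other mutants in both replicates without passing the threshold. *asp-12*, at 45.2 and 57.1 TPM in *mthf-1(ww50)*, lay between 5.01 and 15.2 TPM in the 6 other mutant libraries (log2 difference 2.40; limma, Benjamini-Hochberg adjusted p = 0.0745). *clec-47*, at 247 and 244 TPM in *mthf-1(ww50)*, was at 6.75 and 3.01 TPM in *sams-1(ww51)* and at 61.6 to 124 TPM in *metr-1(ww52)* and *mtrr-1(ww56)* (log2 difference 2.83; limma, Benjamini-Hochberg adjusted p = 0.0767). *acr-17*, an acetylcholine receptor subunit gene, was at 3.8 and 2.98 TPM in *mthf-1(ww50)* and between 0.2 and 0.58 TPM in the 6 other mutant libraries, with 0.14 and 0.13 TPM in the parent. Both *mthf-1(ww50)* libraries thus lay above all other libraries of the series for these 3 genes. Such a position above the 6 other mutant libraries was found for 2.1% of the genes tested, and a position below them for 3.49%.

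On the low side, *pho-11*, an acid phosphatase gene, was at 64.3 and 32.8 TPM in *mthf-1(ww50)*, between 155 and 515 TPM in the 6 other mutant libraries and at 413 and 383 TPM in the parent (log2 difference from the other mutants −2.56; limma, Benjamini-Hochberg adjusted p = 0.0767). F21C10.11 was at 7.12 and 2.83 TPM in *mthf-1(ww50)*, between 23.1 and 87.0 TPM in the other mutants and at 59.4 and 26.1 TPM in the parent. The lysozyme gene *lys-7* was at 239 and 212 TPM in *mthf-1(ww50)*, between 397.5 and 578 TPM in the other mutants and at 331 and 305.5 TPM in the parent. For these 3 genes *mthf-1(ww50)* was the lowest strain of the series. Of the 8 Met/SAM cycle genes, 3 lay above all 6 other mutant libraries, *sams-3*, *sams-5* and *ahcy-1*. This position was found for 2.1% of all genes tested. The median difference from the other mutants over the 8 genes was 0.37 on the log2 scale, against 0.04 for all genes, and none of the 8 was called. Genes near the threshold included cases set by a single other strain. C18D4.6 was at 7.31 and 7.21 TPM in *mthf-1(ww50)*, 4.87 and 4.9 TPM in *sams-1(ww51)*, 4.52 and 4.55 TPM in *mtrr-1(ww56)*, at 0 in both *metr-1(ww52)* libraries and at 3.91 and 4.12 TPM in the parent. *crb-3* was at 20.95 and 25.2 TPM in *mthf-1(ww50)* and at 0.07 and 0 TPM in *mtrr-1(ww56)*, with the other libraries between 17.4 and 31.6 TPM.

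**Figure D5:**
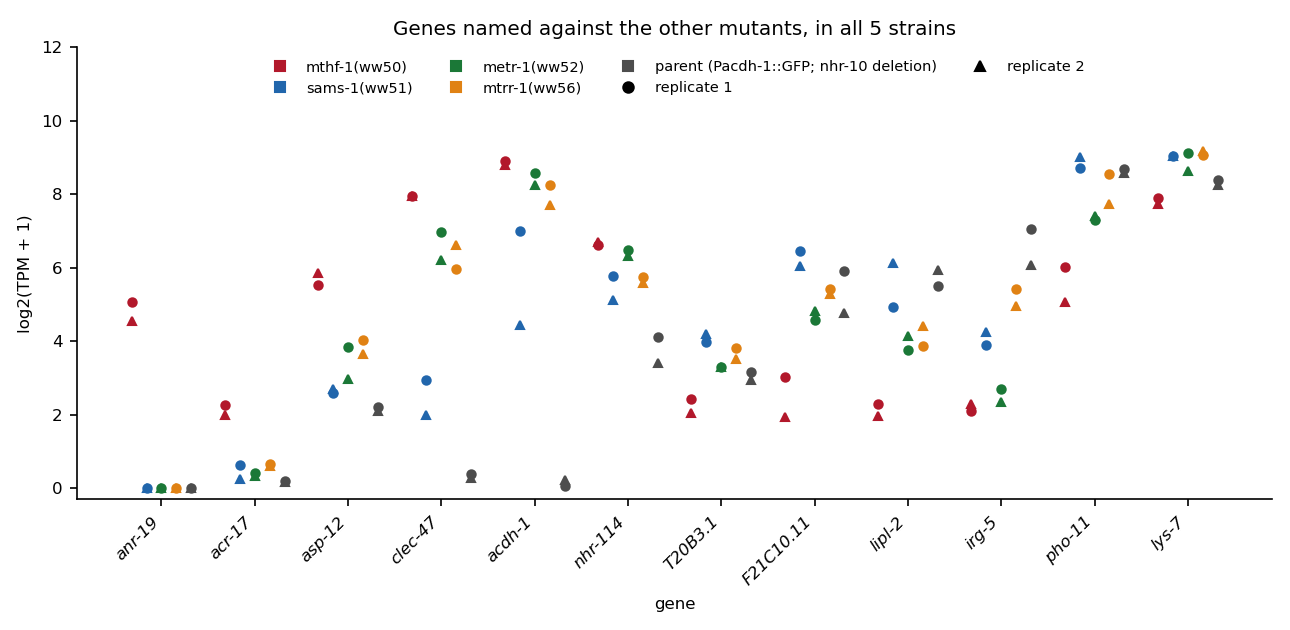
Log2(TPM + 1) of 12 genes (x axis) in each library of *mthf-1(ww50)*, the other 3 mutants and the parent, from left to right within a gene. Circles are replicate 1 and triangles replicate 2. *anr-19* is above 0 only in *mthf-1(ww50)*, and *pho-11*, F21C10.11 and *lipl-2* are lowest there.

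Set beside the other mutants, the genes called in *mthf-1(ww50)* against the parent varied in how far they ran with them, and all comparisons of a mutant with the parent share its libraries. Of the 22 genes called higher, 6 were called in each of the other 3 mutants, 6 in 2 of them, 6 in 1 and 4 in none. Of the 5 called lower, 2 were called in each of the other 3, 2 in 1 and 1 in none. All 3 other mutants differed from the parent in the same direction for 21 of the 22 and for all 5, called or not. *nhr-68* was at 76.2 and 83.4 TPM in *mthf-1(ww50)* and between 70.02 and 85.7 TPM in the 6 other mutant libraries, so the 4 mutants did not differ beyond their replicates. *acdh-1*, at 477 and 443 TPM in *mthf-1(ww50)*, was at 126 and 20.9 TPM in *sams-1(ww51)*, 378 and 301 TPM in *metr-1(ww52)* and 305 and 208 TPM in *mtrr-1(ww56)*, and the difference between *mthf-1(ww50)* and their mean did not pass (limma, Benjamini-Hochberg adjusted p = 0.45). *nhr-114*, at 97.2 and 103.5 TPM in *mthf-1(ww50)*, lay between 33.6 and 88.3 TPM in the 6 other mutant libraries (limma, Benjamini-Hochberg adjusted p = 0.399).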

How the data were processed

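Whole-animal RNA of 2 biological replicates per strain was sequenced as 100 bp paired-end reads. The authors mapped the reads with Bowtie2 to the WormBase WS271 genome and estimated abundance with RSEM at default parameters, and the deposited values are TPM per gene, which keep no sequencing depth. No strand setting is stated. Each column names its strain and replicate, and 0 columns were left unassigned. DESeq2 and R 3.6.3 stand in the submitters' notes, and no count test was possible on TPM.

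Symbols came from a gene name table for 44018 of 46903 genes. Positions and exon overlaps are from the WBcel235 annotation, not compared base by base with WS271.

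Genes that averaged 1 TPM or more in these 4 libraries were fitted as log2(TPM + 1) with limma 3.58.1 in R 4.3.3, with a mean per strain over the 10 libraries, a mean-variance trend and two-sided Benjamini-Hochberg adjusted p-values over all 14218 genes. An exact permutation test of 2 against 2 libraries cannot go below p = 0.333. Simulated data held 14218 genes, of which 200 were changed. There this fit called 18%, 66%, 84% and 94% of genes changed by 1, 2, 3 and 4 on the log2 scale. It made 2 false calls among the unchanged genes. These rates belong to the simulated data. Whether they hold for the real libraries, whose replicate differences were correlated between strains, was not tested.

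The labels number the replicates without saying what a number shares. The log2 difference between replicates correlated across genes over all 10 pairs of strains, at 0.167 to 0.751, so equal numbers were treated as paired and a fit with a replicate block was made beside the fit without one. Named are the members of the metabolic lists, the 12 called genes with the highest and the lowest fold change, the 5 with the smallest p-values on each side against the other mutants, and from each other list the 2 highest and 2 lowest members and any called member. Other genes were named after their values were seen. The comparison and all lists were chosen with earlier results of these data known. The cutoffs are those that the study's methods give. Python 3.11.15, numpy 2.4.6, pandas 2.3.3 and matplotlib 3.10.9 made tables and figures.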

Additional observations from a re-analysis of the deposited data

Results flagged for a closer look

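*anr-19* was the gene whose level in *mthf-1(ww50)* differed from the mean of the other 3 mutants in the test of that difference, with an adjusted p of 0.000234 (limma, Benjamini-Hochberg). It was listed at 32.7 and 22.5 TPM in *mthf-1(ww50)* and at 0 in the other 8 libraries, and it was called in each fit that left out 1 of the 4 libraries. Its 123 bases lie wholly within exons of *trpp-10* on the other strand, and what the reads assigned to it represent was not tested.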

How the results depend on the processing

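All 27 called genes kept their direction under each of the 15 alternatives that gave them a value, and the filter at 5 TPM gave none for 4 of them. For most of these settings this was fixed in advance, since the fold change was the same or the strains did not overlap. Only rescaling of the libraries, as in quantile normalization, could have reversed a direction. Genes called higher against the parent, 22, were 14 after quantile normalization, 13 in a test against a 1.5-fold change, 35 with the replicate block, 86 at an adjusted p under 0.05 and 344 with both, the last added after seeing the data. Fitting the 4 libraries alone gave 2. Leaving out 1 library gave 7 to 24. Genes called lower, 5, were 3 with a pseudocount of 0.1, 3 at a mean of at least 5 TPM, 9 with the block, 37 at an adjusted p under 0.05, 135 with both, 0 with the 4 libraries alone and 1 to 18 with 1 library left out. Against the other 3 mutants, 1 gene called higher became 2 with a pseudocount of 0.1, 3 with no filter, 0 at a mean of at least 5 TPM, 2 without the mean-variance trend, 2 at an adjusted p under 0.05 and 1 to 19 with 1 library left out, and 0 called lower became 5 with no filter and 0 to 1 with 1 library left out. The cause was not tested, apart from the fewer samples, the fewer genes tested or the other thresholds that these settings apply. The paired analysis with the replicate block made 44 calls, against 27 without it, and lost none. TPM values limit the precision, since depth is unknown.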

Other observations

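None of the groups that follow held a called gene. Of 11 tested cuticle collagens that shape the body, other than the furrow collagens, 8 had both *mthf-1(ww50)* libraries above both parent libraries, where 29.6% of all genes did, and their median log2 fold change was 1.48. *bli-1* was at 206.8 and 82.2 TPM in *mthf-1(ww50)*, against 18.96 and 12.35 TPM in the parent (limma, Benjamini-Hochberg adjusted p = 0.272, and 0.0229 with the replicate block). Of 39 hedgehog-related genes, 15 lay above and 6 below, with a median of 0.41. *wrt-2* was at 56.6 and 25.9 TPM in *mthf-1(ww50)*, against 3.54 and 1.88 TPM in the parent (limma, Benjamini-Hochberg adjusted p = 0.298, and 0.0282 with the replicate block). Of 117 cuticle collagen genes, 35 lay below and 11 above, where 14% and 29.6% of all genes did, with log2 fold changes between −1.69 and 3.78. *col-98*, the highest, was at 7.36 and 85.2 TPM in *mthf-1(ww50)*, against 0.14 and 2.34 TPM in the parent, and its replicates lay far apart in both strains. As with the furrow collagens, the part of the stage markers in these values was not tested. The 20 respiratory chain genes had log2 fold changes between −0.11 and 0.21. The 11 histone and arginine methyltransferase genes, whose products use S-adenosylmethionine, lay between 0.11 and 0.45, and 5 of them had both *mthf-1(ww50)* libraries above both parent libraries. *set-2* was at 23.6 and 25.1 TPM in *mthf-1(ww50)*, against 16.5 and 18.7 TPM in the parent (limma, Benjamini-Hochberg adjusted p = 0.27). The 12 unfolded protein and stress response genes lay between −0.87 and 0.27, and the heat shock gene *hsp-70* was at 12.1 and 58.0 TPM in *mthf-1(ww50)* and 49.3 and 50.1 TPM in the parent, so its mutant replicates spanned the parent level. The 3 neuron markers and the 5 muscle and pharynx markers had medians of 0.10 and −0.07. Of the 27 called genes, 11 lie on chromosome V, which holds 2753 of the genes tested.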
